A study of Ovis aries with 17 samples.

Results

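Plasmacytoid dendritic cells (pDC) were compared with splenic macrophages (MP) of the sheep on 6 of the 17 microarrays of a study of sheep dendritic cell subsets, 3 arrays for each cell type. Members were chosen by sample title, and pDC and MP arrays of the same replicate number were read on the same slide. The pDC candidates were sorted by flow cytometry from low-density blood cells as large cells negative for B cell, CD11b, TCR1, CD8 and CD11c staining and positive for CD45RB. MP were sorted from spleen cells with an antibody to CD14. The other 11 arrays held 4 splenic B cell samples, 3 cultures of monocyte-derived dendritic cells grown with GM-CSF (MoDC), 3 blood XCR1- DC samples and 1 blood XCR1+ DC sample. The labels name no stimulation and no genetic change in either group. The sheep bled were Prealpe females, and no breed or sex is stated for the spleen donors. Samples with too little RNA were combined between animals, without a record of which arrays this concerned. Tissue of origin, sorting antibodies and cell type changed together between the groups, so their parts in any difference cannot be told apart. In sorted bulk RNA, fewer cells of a type and less RNA per cell cannot be told apart either.

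Plasmacytoid dendritic cells are blood and lymphoid cells known for releasing type I interferon after sensing viral nucleic acid in endosomes. Their identity depends in other mammals on the transcription factor TCF4, also called E2-2. Macrophages are tissue phagocytes that depend on the receptor CSF1R, recognise bacterial products through CD14 and TLR2, and carry lysozyme and the phagosomal metal transporter SLC11A1.

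Each array held 15060 probes of 60 bases. Values are log2 signals from which the array's own 75th percentile was subtracted, and differences are pDC minus MP on this scale. The dimmest signals still called well above background lay between -5.69 and -4.24 on the 6 arrays. The 75th percentile signal lay between 284.1 and 509.6 on pDC arrays and between 193.6 and 491.3 on MP arrays, and 61.1% to 72.3% of spots were well above background. Replicates correlated at 0.934 to 0.956 for pDC and 0.941 to 0.961 for MP, against 0.777 to 0.841 between both. The number of arrays limits the precision, and values of different probes are not comparable with each other. A named gene is one with a symbol in the array annotation or through its RefSeq transcript.

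Probes behind marker genes are shown first, because on this array a probe is the only identity a measured value has. All are written 5′ to 3′ in lower case from the deposited annotation, and no base is singled out.
GNLY: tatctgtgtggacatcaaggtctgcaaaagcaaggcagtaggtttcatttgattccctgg
CCR9: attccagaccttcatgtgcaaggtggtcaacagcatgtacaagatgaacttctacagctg
CD14: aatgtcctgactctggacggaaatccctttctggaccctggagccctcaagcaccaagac
CSF1R: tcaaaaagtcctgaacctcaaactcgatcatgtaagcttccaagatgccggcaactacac
LYZ: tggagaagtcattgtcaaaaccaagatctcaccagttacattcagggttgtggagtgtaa
The names PTGS2 and PGHS2 belong to a pair of probes with the same 60 bases, of which the last 30 are shown here, and both names stand for the inducible cyclooxygenase.
PTGS2: ttggtgcctcagactatgtatgattaaatt
Their values are therefore 1 measurement made on separate spots, and every count below that holds both names counts this sequence once too often.

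Of 11311 genes tested, 2932 (25.9%) passed an adjusted p of 0.05 with at least a 2-fold difference in the limma fit, 1478 (13.1%) higher in pDC and 1454 (12.9%) higher in MP. The named genes were 423 on the array, and 270 of them passed a filter that asked for a probe well above background throughout at least 1 of the 6 subsets. Among these 270, 34 were higher in pDC and 64 higher in MP, which is 98 genes or 36.3%. Each of the 98 had 1 sign on all 3 slides and no overlap between the groups. In all, 141 of the 270 did not overlap, beside 46.3% of all genes tested, 58 of them higher in pDC (24.3% of all genes) and 83 higher in MP (21.9%). The median difference pDC minus MP was -0.20 on the log2 scale for named genes and 0.06 for all genes. Of the 34 genes higher in pDC, 15 were well above background on all 6 arrays and 3 (CCR9, ABCB1 and FST) had passed the filter only through pDC. Of the 64 higher in MP, 44 were well above background on all 6 arrays, and SELP had passed only through MP. With normexp background correction, 72 of the 98 named calls were kept. Among the genes chosen for naming, HBB, ABCB1, KLK1 and IL2RA lost their pDC calls, and LTF, IL15, BMPR2, MET, XCR1, LPL, STAR and SELP their MP calls, at adjusted p from 0.106 to 0.779.

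**Figure D1:**
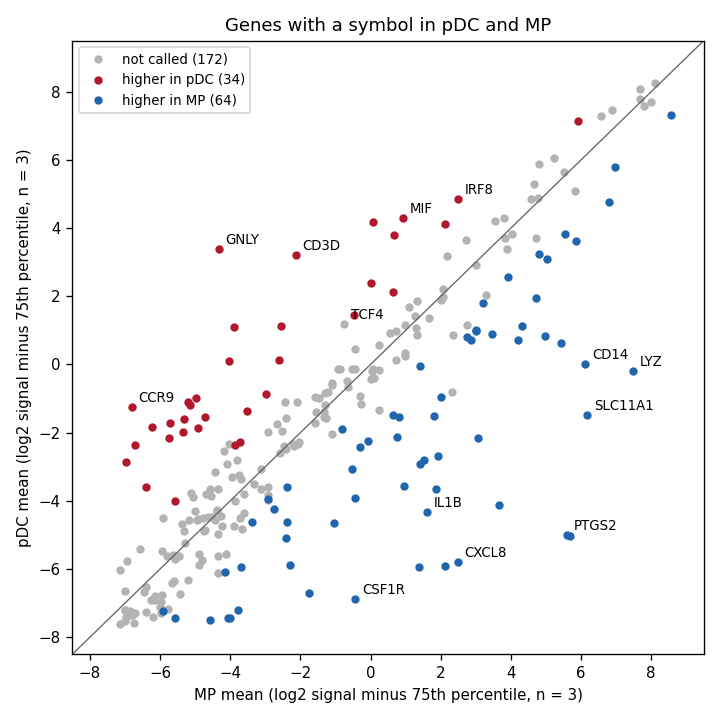
Mean of the 3 pDC arrays (y axis) against the mean of the 3 MP arrays (x axis) for the 270 named genes, in log2 signal minus the array's 75th percentile, with the line of equal values. Red points are the 34 genes higher in pDC, blue points the 64 higher in MP and grey points the 172 not called, and the PTGS2 pair lies farthest below the line.

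The arrays of the groups did not overlap for TCF4, CSF1R or CD14, and TCF4 did not pass the test over all 17 arrays. TCF4 read 1.07, 0.71 and 1.78 in pDC and -0.56, -1.02 and -0.67 in MP. No pDC array fell within the MP range, and the difference was 3.83-fold (log2 1.94 ± 0.75 SE), with adjusted p = 0.0693. The adjusted p was 0.00882 with the slide as a replicate block over the 6 arrays and 0.00662 over the 6 arrays without a block, so TCF4 passed the test in both fits on these 6 arrays. It also passed with quantile normalisation (0.0482), normexp (0.00117) and the deposited log2 table (1.56e-04). It did not pass with the slide as a block over all 17 arrays (0.0753), without the filter (0.0873), with the filter on all 6 arrays (0.0668), with the mean over probes (0.0691) or without any 1 of the 6 arrays (0.0858 to 0.196). CSF1R, the receptor for macrophage colony-stimulating factor, read -0.71, -0.51 and -0.07 in MP and -6.32, -7.19 and -7.14 in pDC, where no array was well above background. MP were at least 30.4-fold higher on this scale (adjusted p = 5.70e-06). The difference was smaller with other background treatment, at log2 -3.97 in the deposited log2 table and -2.46 with normexp, and passed in both. CD14, which binds bacterial lipopolysaccharide, read 5.29, 6.84 and 6.23 in MP and 0.06, -0.20 and 0.15 in pDC, or 69.5-fold higher in MP (log2 -6.12 ± 0.36 SE, adjusted p = 4.79e-08). MP were sorted with anti-CD14, so this value is not independent of the sort. The other CD14 probe, whose bases are printed above, ran the same way with means of 2.33 and -1.75.

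Among the named genes, GNLY, the cytotoxic granule protein granulysin, rose most in pDC. It read 2.11, 4.97 and 3.08 in pDC and -6.43, -1.82 and -4.75 in MP, with 2 of 3 MP arrays well above background. The groups did not overlap, although MP replicate 2 stood well above the other MP arrays (211-fold, log2 7.72 ± 0.99 SE, adjusted p = 3.89e-05). CCR9, a chemokine receptor for homing to the gut that pDC of other mammals also carry, read -1.03, -2.46 and -0.30 in pDC and -6.10, -6.79 and -7.52 in MP. It was not well above background on any MP array, so pDC were at least 12-fold higher (means -1.26 ± 1.10 and -6.80 ± 0.71 SD, n = 3, adjusted p = 0.00107). CCR9 also passed in the deposited log2 table (log2 3.53) and with normexp (1.74). CCR10, the receptor for the skin and mucosal chemokines CCL27 and CCL28, read -0.06, 0.12 and 0.24 in pDC and -4.19, -4.02 and -3.91 in MP. Its difference was nearly the same on the 3 slides, at 4.14, 4.14 and 4.15, for a 17.7-fold higher signal in pDC, with 2 of 3 MP arrays well above background (log2 4.14, and 2.31 with normexp, adjusted p = 4.20e-06).

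Subunits of the CD3 complex, through which the T cell receptor signals, were the next group. CD3D read 3.70, 2.94 and 3.02 in pDC and -2.23, -3.22 and -0.92 in MP (40.7-fold, log2 5.35 ± 0.47 SE, adjusted p = 1.44e-06). CD3E read 4.64, 3.12 and 4.74 in pDC and 0.00, -0.71 and 0.92 in MP (17.1-fold, log2 4.10 ± 0.50 SE). CD247, the zeta chain, read 1.25, 0.66 and 1.41 in pDC and -3.28, -4.78 and -3.65 in MP (32.2-fold, log2 5.01 ± 0.73 SE, and 3.19 with normexp). For all 3 genes every pDC array read above every MP array, beside 24.3% of all genes that were apart and higher in pDC. CD3D and CD3E were still well above background on all 3 MP arrays and CD247 on 2. The sort had excluded TCR1 and CD8 staining, and no CD3 antibody was named for it.

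Over the whole list of T and NK cell markers, 8 of 39 genes had a named probe and 6 passed the filter, and 5 of these 6 were higher in pDC (CD3D, CD3E, CD247, GNLY and IL2RA, the alpha chain of the interleukin 2 receptor). With normexp IL2RA lost its call (adjusted p = 0.164). Beside them stands the 13.1% of all genes higher in pDC. CTLA4, an inhibitory receptor of T cells, read -3.51, -3.95 and -3.84 in pDC and -4.92, -5.43 and -4.98 in MP (log2 1.35 ± 0.52 SE, adjusted p = 0.0693, and 0.0126, a call, with the replicate block over the 6 arrays alone). CD28 and IFNG were not well above background on all arrays of any subset. The mean log2 value over the 6 genes was 1.00 to 1.04 on pDC arrays, -3.79 to -2.88 on MP arrays and -1.77 to -1.36 on B cell arrays. These markers of T and NK cells thus moved with the pDC group, and the part of such cells in the other pDC values was not tested. The median difference over the list was 4.55, beside 0.06 over all genes tested.

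The list of pDC-associated genes held 31 names, of which 6 had a named probe and passed the filter. IRF8, a transcription factor of dendritic cell development, and CCR9 were higher in pDC, beside 13.1% of all genes, and the other 4 did not pass. IRF8 read 4.42, 4.50 and 5.62 in pDC and 2.33, 2.45 and 2.72 in MP (5.09-fold, log2 2.35 ± 0.41 SE, adjusted p = 5.79e-04), and its second probe gave 2.59. TLR9, the endosomal receptor for unmethylated DNA, read -3.88, -5.67 and -3.94 in pDC and -6.46, -5.14 and -6.17 in MP. The groups overlapped, no MP array and 2 of 3 pDC arrays were well above background, and the test did not pass (adjusted p = 0.0766). FLT3, the receptor for the dendritic cell growth factor FLT3 ligand, gave 0.38 ± 0.45 (SE), and UNC93B1, which delivers nucleic acid receptors to endosomes, -0.22 ± 0.53 (SE). The median over the 6 genes was 1.68. The mean log2 value of the list was -0.62 to 0.85 on pDC arrays and -1.91 to -1.64 on MP arrays.

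**Figure D2:**
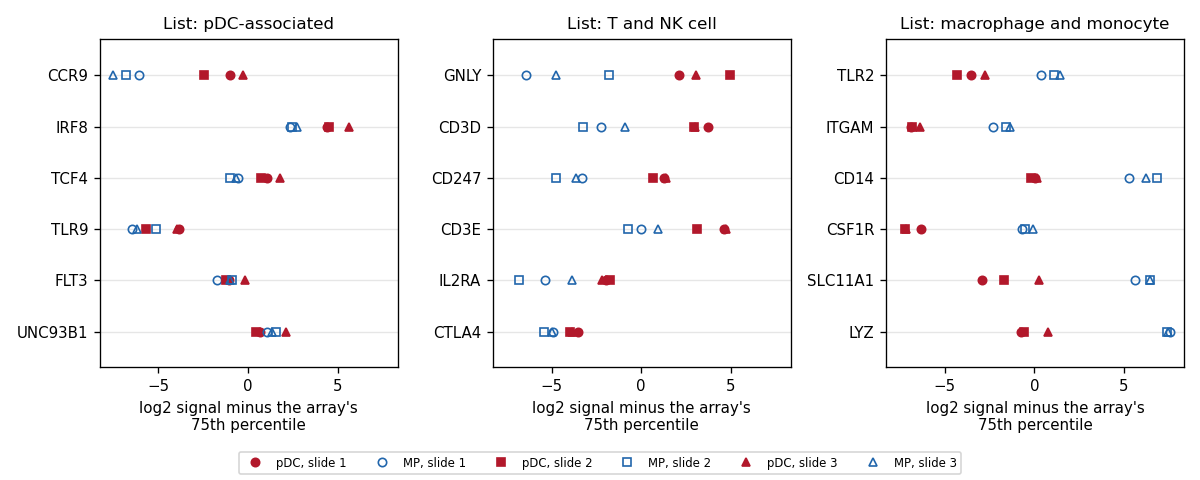
Values of the members of the pDC-associated, T and NK cell, and macrophage and monocyte lists that passed the filter, in log2 signal minus the array's 75th percentile, on each pDC array (filled red) and MP array (open blue), with a symbol for each slide. The groups are apart for all 6 T and NK cell genes, of which CTLA4 was not called, and for all 6 macrophage genes. Of all genes tested, 24.3% are apart and higher in pDC and 21.9% apart and higher in MP. The groups overlap for TLR9, FLT3 and UNC93B1.

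The other genes among the 12 largest pDC differences had varied roles. HBB, the beta chain of haemoglobin, read -0.21, -2.82 and -2.45 in pDC and was not well above background on any MP array, with pDC at least 8.08-fold higher. pDC replicate 1 stood above the others. ABCB1, an efflux pump for drugs and lipids, was at least 5.54-fold higher in pDC, SLC12A4, a potassium chloride cotransporter, at least 8.62-fold, MLN, the precursor of the gut hormone motilin, at least 14.0-fold, and KLK1, tissue kallikrein, at least 3.98-fold. In the deposited log2 table the differences of HBB, ABCB1, SLC12A4, MLN and KLK1 were log2 2.64, 2.68, 2.29, 2.66 and 2.21, and with normexp 1.24, 1.03, 1.16, 1.63 and 0.89. KI67, the proliferation antigen, read -1.30, -0.74 and -1.23 in pDC and -5.70, -3.52 and -6.38 in MP, where 1 of 3 arrays was well above background (17.3-fold, adjusted p = 7.69e-04, and log2 1.78 in place of 4.11 with normexp).

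Of 8 measured genes of the cell cycle, survival and DNA list, PCNA, BCL2 and DNMT1 were higher in pDC and MCL1 higher in MP, beside 13.1% and 12.9% of all genes. PCNA, the sliding clamp of DNA polymerase, read 3.57, 4.17 and 3.68 in pDC and 0.17, 1.22 and 0.58 in MP (8.88-fold, log2 3.15 ± 0.51 SE, adjusted p = 2.98e-04). DNMT1, which copies DNA methylation at replication, was 3.98-fold higher in pDC. The survival factors ran in opposite directions, with BCL2 5.30-fold higher in pDC (log2 2.40 ± 0.46 SE) and MCL1 4.06-fold higher in MP (adjusted p = 0.00256). MYC, BCL2L1 and BAX did not pass. The median over the 8 genes was 0.36.

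**Figure D3:**
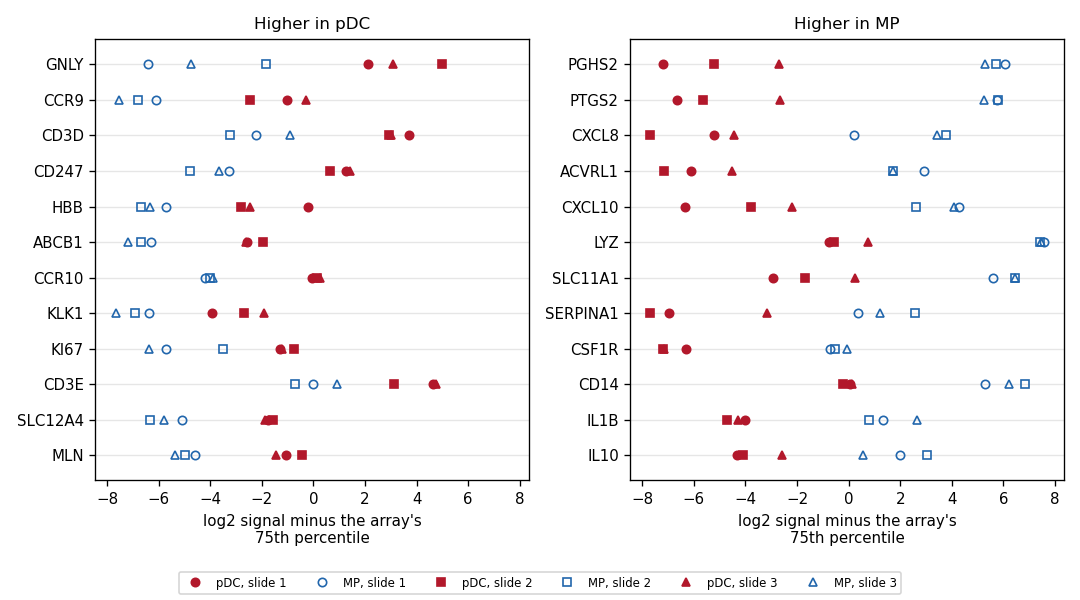
Values on each pDC array (filled red) and MP array (open blue) of the 12 named genes with the largest difference in each direction, in log2 signal minus the array's 75th percentile, with a symbol for each slide. The arrays of both groups are apart for all 24 genes, beside 46.3% of all genes tested, and PTGS2 and PGHS2 share a probe sequence.

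The largest difference of any named gene was in MP. PTGS2, which makes prostaglandin H2 from arachidonic acid in activated cells, read 5.77, 5.81 and 5.25 in MP and -6.66, -5.66 and -2.67 in pDC, where 1 of 3 arrays was well above background. MP arrays lay close together, while pDC replicate 3 was the highest of its group. The difference of the measured means was 1560-fold (log2 -10.61 ± 1.00 SE, adjusted p = 2.68e-06, with log2 -7.57 under normexp and -8.76 in the deposited log2 table), and the same probe under the name PGHS2 gave 1700-fold. PTGS1, the constitutive cyclooxygenase, was 20.0-fold higher in MP (log2 -4.32 ± 1.03 SE, adjusted p = 0.00532), reading 3.48, 0.91 and 0.20 in MP and -3.96, -3.08 and -1.33 in pDC. Of the 12 measured members of the prostaglandin and lipid metabolism list, 6 were higher in MP and none in pDC, beside 12.9% of all genes higher in MP. ABHD5, a coactivator of triglyceride breakdown, was 4.52-fold higher in MP (log2 -2.18, and -1.43 with normexp). LPL had no array of either group well above background, and its call was lost without any 1 of the 6 arrays (adjusted p from 0.0647 to 0.137). STAR, the cholesterol carrier of steroid synthesis, was at least 2.31-fold higher in MP, a call lost without pDC replicate 1 (adjusted p = 0.124), pDC replicate 2 (0.0591), MP replicate 2 (0.115) or MP replicate 3 (0.0595), and with normexp (log2 -0.49, adjusted p = 0.504).

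Of the macrophage and monocyte list, 8 of 45 genes had a named probe and 6 passed the filter. All 6 were higher in MP, beside 12.9% of all genes, with a median difference of -6.29. SIRPA and SPP1 did not pass the filter and were not well above background on any pDC or MP array. LYZ, lysozyme, read 7.58, 7.42 and 7.46 in MP and -0.74, -0.58 and 0.76 in pDC (204-fold, log2 -7.67 ± 0.55 SE, adjusted p = 2.53e-07). SLC11A1, which removes divalent metals from phagosomes, read 5.61, 6.45 and 6.44 in MP and -2.94, -1.70 and 0.24 in pDC (199-fold). TLR2, a receptor for bacterial lipoproteins, read 0.36, 1.11 and 1.42 in MP and -3.51, -4.34 and -2.78 in pDC (22.8-fold, adjusted p = 6.69e-06). ITGAM, the alpha chain of CD11b, was at least 12.3-fold higher in MP on this scale (log2 -2.42 in the deposited log2 table and -1.33 with normexp, both passing), and the pDC sort had excluded CD11b. None of these genes overlapped between the groups, beside 21.9% of all genes that were apart and higher in MP. The mean log2 value over the 6 genes was 2.64 to 3.36 on MP arrays and -3.48 to -2.52 on pDC arrays, with pDC replicate 3 the highest pDC array for LYZ, SLC11A1 and TLR2.

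Further genes among the 12 with the largest MP differences were a receptor and a protease inhibitor. ACVRL1, a receptor of the TGF-beta family known from blood vessel lining cells, read 2.91, 1.72 and 1.71 in MP and -6.09, -7.14 and -4.52 in pDC, with 1 of 3 pDC arrays well above background (261-fold by the measured means, log2 -8.03 ± 0.92 SE, adjusted p = 1.44e-05, and log2 -4.86 with normexp). SERPINA1, the inhibitor of neutrophil elastase, read 0.38, 2.58 and 1.21 in MP and -6.95, -7.68 and -3.17 in pDC. Here too 1 of 3 pDC arrays was well above background, so the 160-fold difference of the means (adjusted p = 0.00181) rests in part on pDC signals at background, and log2 -7.32 became -3.64 with normexp.

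Genes of the cytokine and chemokine list were mostly higher in MP. Of its 21 members with a named probe, 12 passed the filter, with a median difference of -2.77. Of these, 7 were higher in MP (12.9% of all genes) and 1 higher in pDC (13.1% of all genes). The list did not hold every such gene on the array, and XCL1, outside it, was higher in pDC and is given below. CXCL8, which attracts neutrophils, read 0.23, 3.77 and 3.44 in MP and -5.20, -7.69 and -4.44 in pDC, where 1 of 3 arrays was well above background (306-fold by the measured means, log2 -8.26 ± 0.92 SE, adjusted p = 1.07e-05, and log2 -4.74 with normexp). The proinflammatory IL1B read 1.35, 0.80 and 2.64 in MP and -4.01, -4.70 and -4.30 in pDC (61.2-fold, log2 -5.93, and -3.86 with normexp), and the inhibitory IL10 read 1.99, 3.03 and 0.55 in MP and -4.31, -4.09 and -2.58 in pDC (45.9-fold). Both were apart on every slide. IL1A, with 1 of 3 pDC arrays well above background, was 12.1-fold and IL18 4.35-fold higher in MP, and with normexp log2 -3.60 became -1.16 for IL1A and -2.12 became -1.35 for IL18. IL15, a growth factor of NK cells, was at least 2.54-fold higher in MP on the main scale, and not called with normexp (log2 -0.67, adjusted p = 0.143).

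MIF, the macrophage migration inhibitory factor, was the member of the cytokine and chemokine list higher in pDC. It read 4.59, 4.11 and 4.18 in pDC and 0.71, 1.07 and 0.99 in MP, 10.3-fold higher in pDC on tight replicates (log2 3.37 ± 0.60 SE, adjusted p = 6.07e-04). TNF read 1.71, 2.36 and 1.59 in pDC and 3.01, 1.20 and 1.85 in MP. These groups overlapped, and the difference was -0.13 ± 0.44 (SE, adjusted p = 0.880). CXCL1, IL7 and IL6 did not pass either, and IL6 was not well above background on any of the 6 arrays.

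Of 7 measured members of the interferon response list, 3 were higher in MP, beside 12.9% of all genes, and none in pDC, and the median difference was -3.14. MX2, an interferon-induced antiviral GTPase, read 5.09, 1.67 and 2.39 in MP and -2.52, -2.50 and -1.43 in pDC (36.7-fold, log2 -5.20 ± 1.12 SE, adjusted p = 0.00277). ISG15, a ubiquitin-like interferon product, read 4.40, 1.33 and 1.24 in MP and -1.43, -1.20 and 0.21 in pDC. Its groups were apart, but the difference of -3.14 ± 1.18 (SE) had adjusted p = 0.0623. MX1 read 4.06, 2.18 and 1.97 in MP and 0.16, 2.22 and 1.14 in pDC, with overlap (log2 -1.57 ± 0.58 SE, adjusted p = 0.0590). MP replicate 1 was the highest array for MX1, MX2 and ISG15. CXCL10, which attracts activated T cells, read 4.27, 2.61 and 4.10 in MP and -6.35, -3.79 and -2.18 in pDC, where 2 of 3 arrays were well above background (218-fold), and IRF1, a transcription factor of the interferon gamma response, was 23.9-fold higher in MP. The interferon receptor chains gave 0.09 ± 0.33 (SE) for IFNAR1 and -0.62 ± 0.27 (SE) for IFNAR2, with adjusted p of 0.896 and 0.116.

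**Figure D4:**
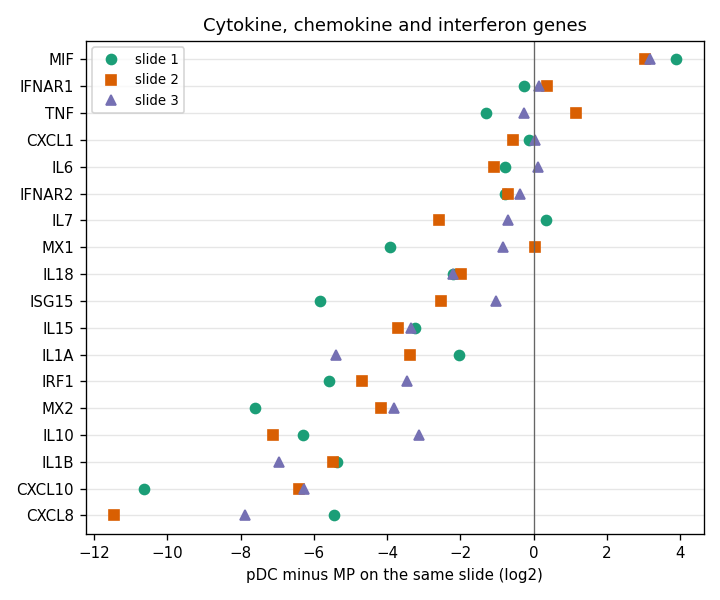
Difference pDC minus MP on each slide (log2, x axis) for the members of the cytokine and chemokine list and the interferon response list that passed the filter, ordered by the mean difference, with the line at 0. MIF lies at 3.04 to 3.88 on the 3 slides, within each of MX1, MX2, ISG15 and CXCL10 slide 1 gives the lowest of the 3 differences, and TNF crosses 0.

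Of 7 measured members of the list of blood cell transcription factors, IRF8 was higher in pDC (13.1% of all genes) and BATF3, IRF1, ID2 and AHR were higher in MP (12.9% of all genes), while TCF4 and STAT5A did not pass, and the median was -2.96. ID2, an inhibitor of E proteins such as TCF4, read 4.26, 4.53 and 3.79 in MP and 0.57, 0.94 and 0.64 in pDC (11.1-fold, log2 -3.48 ± 0.32 SE, adjusted p = 2.07e-06). TCF4 and ID2 thus lay on opposite sides on all 3 slides. AHR, the aryl hydrocarbon receptor, read 1.64, 1.84 and 1.96 in MP and -1.57, -1.65 and -1.32 in pDC (log2 -3.33 ± 0.37 SE). BATF3, a factor of cross-presenting dendritic cells, was 7.80-fold higher in MP, at 2.36, 1.64 and 2.05 against 0.20, -2.46 and -0.58.

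Of 6 measured members of the integrin and adhesion list, 4 were higher in MP, beside 12.9% of all genes, with a median of -2.53. ICAM1, the ligand of leukocyte integrins, read -0.69, -1.85 and -0.57 in MP and -3.80, -5.44 and -4.72 in pDC (12.3-fold, adjusted p = 3.08e-04, and log2 -1.85 in place of -3.62 with normexp). SELP, the platelet and endothelial P-selectin, was at least 2.45-fold higher in MP on the main scale and not called with normexp (log2 -0.61, adjusted p = 0.265), and ITGB2, the beta chain shared by CD11a and CD11b, 3.24-fold. The ITGB2 call was lost without pDC replicate 1 (log2 -1.45, adjusted p = 0.0502). ITGAL gave -0.14 ± 0.49 (SE) and CADM1, an adhesion molecule of XCR1+ DC, 0.82 ± 0.64 (SE), and neither passed.

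Of 12 measured members of the cytokine and growth factor receptor list, IL2RA was higher in pDC (10.4-fold, with 1 of 3 MP arrays well above background, adjusted p = 0.00268, and log2 1.0 in place of 3.38 with normexp, adjusted p = 0.164) and CSF1R, ACVR1, BMPR2, MET and XCR1 were higher in MP, beside 13.1% and 12.9% of all genes, with a median of -0.83. The receptors CCR9, CCR10 and ACVRL1, given above, were outside this list. MET, the receptor for hepatocyte growth factor, was at least 1.73-fold higher in MP on the main scale and not called with normexp (log2 -0.58, adjusted p = 0.259). ACVR1, an activin and BMP receptor, read 0.42, 0.80 and 0.71 in MP and -1.61, -1.25 and -1.60 in pDC (4.38-fold, adjusted p = 2.43e-04). XCR1, the chemokine receptor that defines cross-presenting dendritic cells, was 2.78-fold higher in MP, a call lost without pDC replicate 2 (log2 -1.22, adjusted p = 0.10), pDC replicate 3 (0.0658) or MP replicate 3 (0.108), and with normexp (log2 -0.67, adjusted p = 0.159). BMPR2 had 1 of 3 pDC arrays well above background, and its call was lost without pDC replicate 2 (log2 -1.49 in place of -2.26, adjusted p = 0.0982) or MP replicate 3 (0.0634), and with normexp (log2 -0.61, adjusted p = 0.197).

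The list of transporters, iron and oxidative stress genes gave 4 of 7 measured members higher in MP (SLC2A3, SLC11A1, FTH1 and LTF) and ABCB1 higher in pDC, beside 12.9% and 13.1% of all genes. SLC2A3, a glucose transporter, was 4.73-fold higher in MP, and FTH1, the heavy chain of the iron store ferritin, read 8.46, 8.61 and 8.63 in MP and 7.22, 7.10 and 7.65 in pDC (2.37-fold, adjusted p = 0.00654). LTF, lactoferrin of neutrophil granules, was 4.67-fold higher in MP, a call lost without pDC replicate 1 (adjusted p = 0.0705), pDC replicate 2 (0.0698), pDC replicate 3 (0.0863), MP replicate 1 (0.0537) or MP replicate 2 (0.164). The LTF call was also lost with normexp (log2 -0.93, adjusted p = 0.202). TIMP1, an inhibitor of matrix proteases, was 2.26-fold higher in MP, and the call was lost without pDC replicate 3 (adjusted p = 0.0908), MP replicate 1 (0.0576) or MP replicate 2 (0.0551).

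The antigen presentation list was represented by the costimulatory ligands CD80 and CD86, with no call for either. Outside the list, probes named MHC2 and B2MG gave log2 -1.15 and -0.31. MHC2 was well above background on 1 MP array and no pDC array. CD86 read 3.09, 3.74 and 3.33 in pDC and 3.90, 4.17 and 3.58 in MP (log2 -0.50 ± 0.29 SE), and CD80 gave 0.52 ± 0.39 (SE). The B cell list had CR2 alone, the complement receptor of B cells, at -3.16, -1.60 and -2.21 in pDC, -6.17, -4.65 and -1.26 in MP and 4.22 on average in B cells. The pDC and MP arrays overlapped, with 1 of 3 MP arrays well above background (log2 1.70 ± 0.94 SE, adjusted p = 0.216). CR2 alone cannot stand for B cells as a whole. In the paper, a human B cell gene set was enriched in sheep pDC in most comparisons. The paper proposes that residual B cells were sorted with them, which was not tested here. Among reference genes, HPRT1 was 2.65-fold higher in MP, while ACTB, at -0.59 ± 0.36 (SE), and GAPDH did not pass. GAPDH read 3.77, 3.41 and 3.99 in pDC and 4.79, 4.91 and 4.47 in MP, without overlap (adjusted p = 0.413).

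Several called genes outside the lists were picked for naming after their values were seen. The chemokine XCL1, ligand of XCR1, read 0.29, 2.66 and 0.43 in pDC and -2.08, -3.03 and -2.59 in MP (12.9-fold, adjusted p = 7.28e-04). SLPI, a leukocyte protease inhibitor, was 15.7-fold higher in pDC, with 1 of 3 MP arrays well above background. LGALS1, galectin-1, read 5.42, 5.69 and 5.16 in MP and 0.78, 0.42 and 0.71 in pDC (27.6-fold, log2 -4.78 ± 0.42 SE). PDXK, which activates vitamin B6, was 17.3-fold and ALDH1A1, which makes retinoic acid, 20.0-fold higher in MP. BAMBI, a decoy receptor for TGF-beta family ligands, was 4.50-fold higher in pDC.

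The levels in the other subsets were set beside those of pDC and MP. The MoDC arrays and 3 of the B cell arrays shared slides 1 to 3 with pDC and MP, while B cell replicate 4 and all XCR1- and XCR1+ DC arrays lay on slide 4, which held no pDC or MP array and was read with another version of the extraction software. pDC had the highest mean of the 6 subsets for 20 of the 34 genes higher in pDC, and MP for 31 of the 64 higher in MP. Another 21 of the 64 had their highest mean in MoDC, among them CD14, IL1B, CXCL8 and ITGAM. Against B cells, for which 9.22% of all genes passed, 15 of the 34 genes were higher in pDC and 1, PYGM, was lower. GNLY was 6.62 ± 0.93 (SE, log2) above B cells, CCR9 5.10 ± 0.99, CCR10 2.78 ± 0.39 and CD3E 2.80 ± 0.46. CD3D did not pass against B cells (0.96 ± 0.44, adjusted p = 0.210), nor did TCF4 (0.34 ± 0.70, adjusted p = 0.865) or KI67 (0.95 ± 0.70, adjusted p = 0.501).

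Against MoDC, for which 25.9% of all genes passed, 19 of the 64 genes were higher in MP and 11 lower. PTGS2 was 6.0 ± 1.0 (SE, log2) above MoDC, LYZ 4.48 ± 0.55, CSF1R 3.11 ± 0.67, IRF1 5.83 ± 0.84 and IL10 1.90 ± 0.65. CXCL8, at -5.36 ± 0.92, IL1B, at -2.64 ± 0.70, and IL1A, at -5.73 ± 0.88, were lower in MP than in MoDC. CD14 differed by -0.09 ± 0.36 and SLC11A1 by 0.70 ± 0.73, and neither passed. The comparisons with B cells and MoDC share the pDC and MP arrays with the main one.

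**Figure D5:**
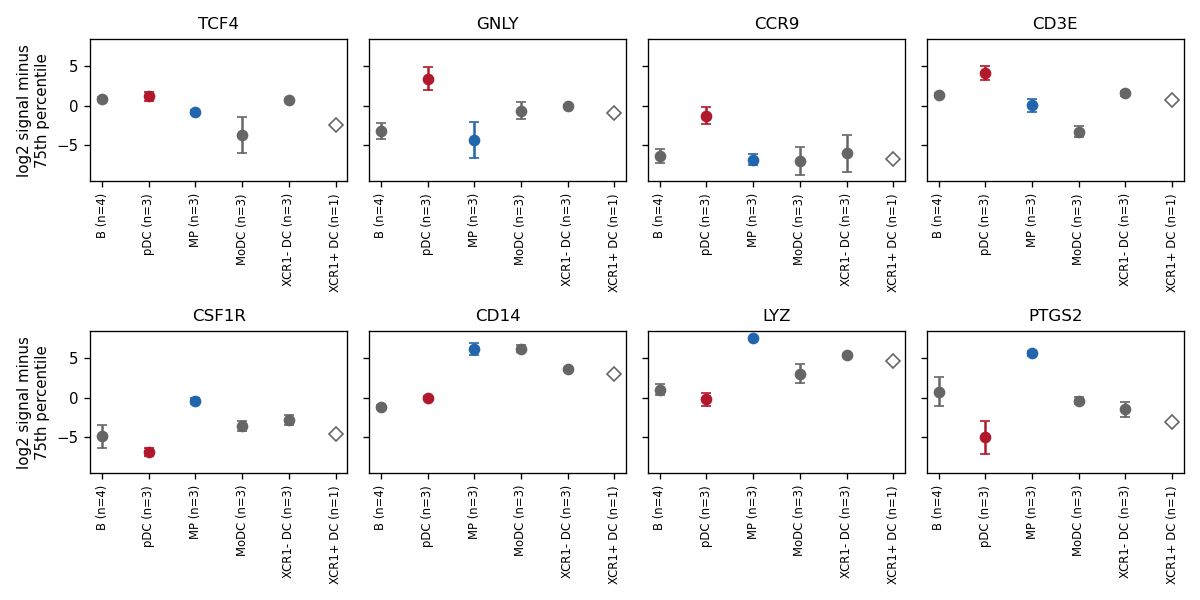
Mean (points) and SD (bars) of 8 named genes in each of the 6 subsets, in log2 signal minus the array's 75th percentile, with the single XCR1+ DC array as an open diamond. GNLY, CCR9 and CD3E have their highest mean in pDC, CSF1R, LYZ and PTGS2 in MP, and CD14 is at 6.12 in MP and 6.21 in MoDC.

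Probes without a symbol gave larger pDC differences than any named gene. The first pair below had the largest differences toward pDC and the second pair the largest toward MP. The last of the 4 is shown by its final 30 bases.
A_70_P026671: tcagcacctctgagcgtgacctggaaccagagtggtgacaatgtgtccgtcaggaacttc
A_70_P041321: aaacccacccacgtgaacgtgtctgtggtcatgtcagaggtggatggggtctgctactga
BL_OTH_F001152: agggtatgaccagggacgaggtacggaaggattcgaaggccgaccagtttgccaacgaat
BL_OTH_F001153: gtttgtgaaatgccagagagaaagatttga
Probe A_70_P026671 read 8.26, 7.63 and 7.64 in pDC and -6.15, -5.23 and -5.69 in MP, where it was not well above background, so that pDC were at least 6590-fold higher (adjusted p = 2.10e-08). Its B cell arrays read -1.54 to 0.98. Probe A_70_P041321 read 10.19, 9.73 and 9.86 in pDC, 2.00 to 3.60 in B cells and -4.57, -3.35 and -1.54 in MP, a log2 difference from MP of 13.08 ± 0.67 (SE).

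Both of these probes were brightest in pDC among the 6 subsets, and no gene was assigned to either. The paper proposes that residual B cells remained in the sorted sheep pDC, and their part in these values was not tested. BL_OTH_F001152 read 3.91, 0.54 and 3.73 in MP and was not well above background in pDC (at least 271-fold, adjusted p = 3.44e-06), and its MoDC arrays read 4.39 to 5.38. BL_OTH_F001153 read 1.94, 1.97 and 1.81 in MP, at least 153-fold above pDC, and 1.96 to 3.69 in MoDC. Both had their highest mean in MoDC.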

How the data were processed

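RNA of sorted sheep cells was hybridised to custom 1-colour Agilent arrays, and the authors deposited spot intensity values from Feature Extraction software with well-above-background flags, plus a deposited table of log2 normalised values that served as an alternative. The rows of that table were matched to probes by alphabetical order of probe names. Its columns correlated with their own arrays at 0.969 to 0.9883, and 16 of the 17 columns correlated best with their own array. Here log2 of the deposited processed intensity was centred on each array's 75th percentile over non-control spots. Probes were kept if all arrays of some subset, of the 6, had them well above background (11549 of 15060 probes, 218 dropped for lack of a usable spot on every array), and the probe with the highest sum stood for a gene (11311 genes). limma 3.58.1 in R 4.3.3 was fitted with 6 group means over all 17 arrays without a block, so that all replicated groups share the estimate of the spread. Calls needed a 2-fold difference and an adjusted p (Benjamini-Hochberg) under 0.05, and the fit was tested on simulated data. The labels do not say that replicates came from separate animals, so p-values measure the spread between these samples.

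Same-numbered pDC and MP arrays shared a slide, and their deviations from the group means correlated at 0.22, 0.22 and 0.45 over all genes. Arrays of different numbers gave -0.26 to 0.05. The numbers thus pair the arrays by slide, and a pairing of animals is not recorded. Where a group had no array well above background, a difference is a lower bound, computed against the lowest signal called well above background on those arrays or the probe's own signal, whichever was higher. Symbols came from the array annotation or from 298 probes matched by transcript accession to RefSeq of the assembly ARS-UI_Ramb_v3.0. Genes named are the markers, the 12 with the largest called difference in each direction with 1 sign on all slides, and members of the lists, called or not. Several called genes outside the lists were added after their values were seen. Counts by gene family refer to list members that passed the filter, not to every such gene on the array. Members and lists were chosen with earlier results of these data known. No genome was used, so no positions are given. A few measured items are not reported here.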

Additional observations from a re-analysis of the deposited data

How the results depend on the processing

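The 2932 calls became 3306 with the replicate block over the 6 pDC and MP arrays, 3211 with the slide as a block over all 17 arrays, and 2470 to 2669 when 1 array was left out. The replicate block fit, which also leaves out the other 11 arrays, called TCF4 and CTLA4 and not PYGM, and changed no other call among the genes named in the text. TCF4 was called on the 6 arrays without a block too (adjusted p = 0.00662) and not with the slide block over all 17 arrays (0.0753). Another background correction (normexp) gave 1893 calls, 836 of them higher in pDC, or 44.2% in place of 50.4%. Requiring probes well above background on all 6 arrays gave 1816 calls on 8186 genes, against 2932 on 11311 in the main fit. Of these, 41.3% were higher in pDC and 59 were named. With the authors' series values the share higher in pDC was 47.9%. A 2-fold ratio between the closest arrays gave 1885 calls. With 1 array left out, the share higher in pDC was 49.3% to 51.5%, named calls numbered 88 to 91 and genes without overlap 5839 to 6286. Of 59 named differences, none reversed. Under normexp 12 lost their call and 28 moved by over 1.5 times, and with the series values 15 moved by that much, and the cause was not tested. CCR9, CSF1R and ITGAM were among these and kept their calls.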
